A study of Homo sapiens with 50 samples.

Results

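Interferon-stimulated genes were followed in A549, an established line of human lung adenocarcinoma cells, under a change of medium, serine lack and compound 16. A list of 39 such genes was taken by symbol, and for each the probe set with the highest mean signal over all arrays stood for the gene. Of these, 38 were measured among the 18239 genes of the table, and STAT2 was not analysed here. The rule itself uses gene names and the mean signal, and the list was drawn up with earlier results of these data known.

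Interferon signals through receptor-bound JAK kinases to STAT proteins, and for type I and type III interferon a complex with the DNA-binding subunit IRF9 then enters the nucleus. There it binds a short element in the promoters of the interferon-stimulated genes, whose products block viral entry, translation and genome copying, tag proteins with ISG15 or raise antigen presentation. Many of these genes also have a basal level in epithelial cells without added interferon.

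The 50 arrays form 17 groups. One group was sampled in RPMI medium before the change of medium. In all other groups the cells had been moved 24 h before the addition to BME, a basal medium, supplemented with non-essential amino acids and either containing or lacking serine. Compound 16 at 1 uM or the solvent DMSO was then added, and RNA was taken at 0, 1.5, 6 and 24 h, where 0 h means no time with the compound. The series title names a small molecule that activates PKM, a pyruvate kinase, and a need for serine. Every group held 3 arrays, apart from DMSO with serine at 1.5 h, which held 2. No interferon, virus or nucleic acid is named in the labels as an added agent. Whether the 3 arrays of a group stem from separate cultures is not said in the labels.

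Values are deposited log2 signals, which ran from 3.36 to 14.58, with array medians of 5.40 to 5.54. Differences are on the log2 scale, ± SE, from one limma fit to all 17 groups, and a gene was called changed when its Benjamini-Hochberg adjusted p over all 18239 genes lay under 0.05. The epithelial genes KRT8 (mean signal 13.57) and EPCAM (9.56) were high. Of 4 leukocyte genes PTPRC (4.11) and CD3E (4.52) were near the low end of the scale, while CD14 (6.00) and LYZ (5.93) were not. LILRA4 (4.28) and CLEC4C (4.07), of plasmacytoid dendritic cells, were near the low end too. As a sign of RNA integrity, the ACTB signal at the 3′ end minus that at the 5′ end had means of 1.17 to 1.21 in the groups at 24 h. It was highest before the change of medium, at 1.37, against 1.22 and 1.14 in the DMSO groups at 0 h with and without serine, and ran from 1.01 to 1.32 at 6 h. The same difference for GAPDH hardly varied over these groups. It was -0.16 before the change, -0.16 and -0.17 in the same DMSO groups at 0 h, and -0.18 to -0.16 at 6 h. Each control had 1 probe set at either end. The part of RNA integrity in the results at the change of medium and at 6 h was not tested. Of the 38 members, 20 had a mean signal at or above that of the median gene (6.44), and 13 lay under 5.16, the 40th percentile, where no background value was used here to tell a transcript from none. Those 13 were MX1, MX2, OAS2, IFIH1, SAMD9L, RSAD2, IFI27, IFI44, IFI44L, BST2, CMPK2, XAF1 and EPSTI1. Fewer cells that express a gene and less RNA per cell cannot be told apart in such RNA.

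Promoters are shown for the 5 members called lower under the compound than in DMSO at 24 h without serine, since these carry the main result. Each is the 250 bases before the RefSeq start on the plus strand of GRCh38.p14. Capitals mark matches on either strand to GAAANNGAAA or GAAANGAAA, 2 spacings of the core of the interferon-stimulated response element, which can overlap each other. The second spacing was added after the OAS1 window had been seen.
OAS1: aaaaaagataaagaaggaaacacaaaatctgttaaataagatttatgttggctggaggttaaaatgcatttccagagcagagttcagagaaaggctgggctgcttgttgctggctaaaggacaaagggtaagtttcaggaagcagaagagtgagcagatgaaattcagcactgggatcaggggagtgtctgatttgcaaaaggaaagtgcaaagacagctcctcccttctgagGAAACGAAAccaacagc
OAS3: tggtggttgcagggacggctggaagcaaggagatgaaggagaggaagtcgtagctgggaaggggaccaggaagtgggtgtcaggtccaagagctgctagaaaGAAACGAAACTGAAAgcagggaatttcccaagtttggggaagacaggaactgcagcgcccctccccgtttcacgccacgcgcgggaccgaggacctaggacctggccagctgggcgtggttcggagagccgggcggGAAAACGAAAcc
IFIT1: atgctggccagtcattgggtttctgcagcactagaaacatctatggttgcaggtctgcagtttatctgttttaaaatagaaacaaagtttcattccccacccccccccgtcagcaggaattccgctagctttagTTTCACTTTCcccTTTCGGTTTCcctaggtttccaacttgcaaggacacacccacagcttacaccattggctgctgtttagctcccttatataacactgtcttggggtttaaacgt
IFITM1: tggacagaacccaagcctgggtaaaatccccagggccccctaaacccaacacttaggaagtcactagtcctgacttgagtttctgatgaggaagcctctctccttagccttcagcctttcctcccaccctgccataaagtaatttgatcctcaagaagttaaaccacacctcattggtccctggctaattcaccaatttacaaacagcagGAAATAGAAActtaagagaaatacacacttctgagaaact
PSMB9: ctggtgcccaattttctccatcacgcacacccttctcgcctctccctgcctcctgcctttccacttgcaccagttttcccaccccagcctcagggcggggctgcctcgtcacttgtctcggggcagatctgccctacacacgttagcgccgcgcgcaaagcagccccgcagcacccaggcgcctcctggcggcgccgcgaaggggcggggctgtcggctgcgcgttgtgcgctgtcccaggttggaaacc
These windows lie at chr12:112906712-112906961 for OAS1, chr12:112938224-112938473 for OAS3, chr10:89392373-89392622 for IFIT1, chr11:313790-314039 for IFITM1 and chr6:32853942-32854191 for PSMB9. OAS1 has 1 match, beginning 17 bases before the start, and OAS3 has 3, at 148, 143 and 12 bases. IFIT1 has 2, the farther at 116 bases, and IFITM1 has 1 at 40. The PSMB9 window holds none, so 4 of the 5 windows hold a match. The OAS1 match is of the second spacing alone, the one added after that window had been seen. Over all members with a window either spacing stood in 77.4%, so the count does not set these 5 apart.

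Windows were found for 31 of the 38 members. GAAANNGAAA on either strand stood in 21 of the 31 (67.7%), against 1014 of 27305 genes with a window (3.71%). GAAANGAAA stood in 11 (35.5%, against 3.34%), and either spacing in 24 (77.4%, against 6.74%). TTCNNNGAA, the core of the element bound by STAT dimers, which is palindromic in its fixed letters, stood in 11 (35.5%, against 8.09%). The members thus share promoter letters that most genes lack. Interferon acts on its target genes through such elements, so these shares follow from the choice of list and are not a result of the arrays. At 24 h without serine the median difference between compound and DMSO was -0.11 in members with GAAANNGAAA and -0.11 in those without. For GAAANGAAA these medians were -0.11 and -0.08, and for TTCNNNGAA -0.20 and 0.04. At the change of medium with serine they were 0.23 and 0.03 for GAAANNGAAA, 0.41 and 0.02 for GAAANGAAA, and 0.45 and 0.07 for TTCNNNGAA. The sets overlap, and these medians are a description without a test.

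**Figure D1:**
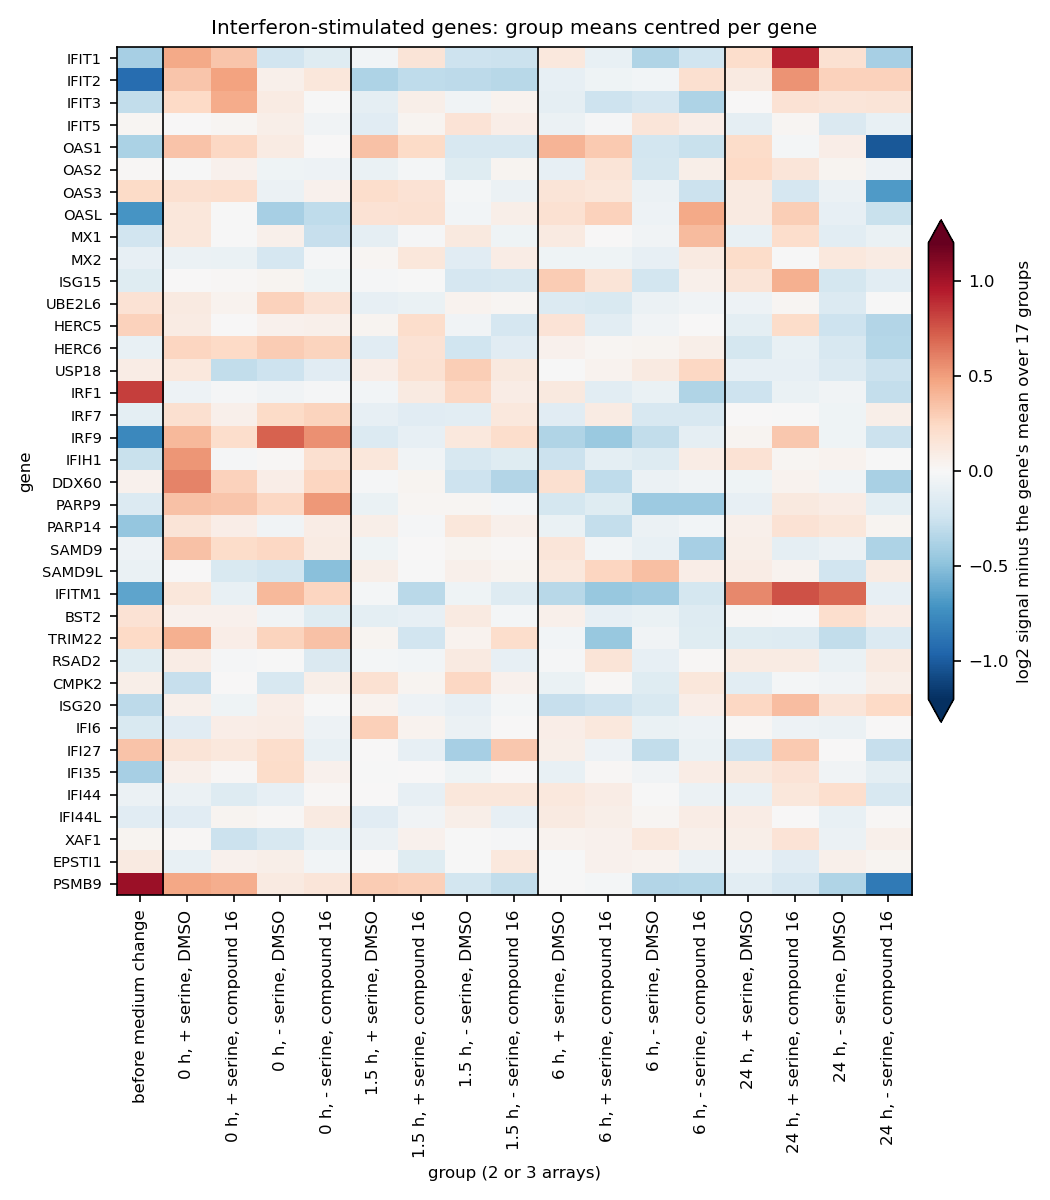
Each row is 1 of the 38 members and each column 1 of the 17 groups; colour gives the group mean of the log2 signal minus the mean of that gene over the groups, from blue (lower) to red (higher). PSMB9 and IRF1 are reddest before the change of medium, IRF9 at 0 h, and OAS1, OAS3 and PSMB9 are bluest at 24 h without serine under compound 16.

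The members did not move as a block over the 17 groups. Over the 703 pairs of members the median correlation of group means was 0.05, and 54.9% of pairs lay above 0. These points share arrays and normalization, and dim members add noise. In all, 9 members had a correlation over 0.5 with the mean of all others: IFIT1 (0.76), DDX60, SAMD9, PARP9, IRF9, OAS1 (0.60), IFI35, IFIH1 and IFIT3. The closest pairs were IFITM1 with ISG20 (0.82), OAS3 with PSMB9 (0.81), UBE2L6 with TRIM22 (0.81) and OAS1 with its neighbour OAS3 (0.80). The mean signal of the 38 members was lowest at 24 h without serine under the compound, at 6.30 ± 0.02 (SD, n = 3). It was highest at 0 h with serine in DMSO, at 6.59 ± 0.03. Before the change of medium it was 6.36 ± 0.03. The group before the change held the lowest mean of 9 members and the highest of 5. The group at 24 h without serine under the compound held the lowest mean of 8 members and the highest of 0. The group at 24 h with serine under the compound held the highest mean of 7 members and the lowest of 0. Such extremes were not counted over all genes, so these counts cannot be read as particular to the members.

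PSMB9, a catalytic subunit of the immunoproteasome, had the widest range, 1.87 between group means, from 9.35 before the change of medium to 7.48 at 24 h without serine under the compound. IRF9 spanned 1.48, IFIT2 1.45, OAS1 1.43, IFITM1 1.40 and IFIT1 1.33. Their pooled SD within groups was far smaller, for example 0.23 for IFIT1 and 0.27 for IFIT2. At the other end IFI44L spanned 0.25 with a pooled SD of 0.22, and EPSTI1 0.27 with 0.23. For these dim genes the whole range over the groups was thus little more than the spread between arrays of a group.

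The change of medium compares the group before the change, in RPMI, with the DMSO groups at 0 h. The latter had spent 24 h in BME and no time with the compound. No group stayed in RPMI for those 24 h, so the new medium cannot be told apart from further time in culture and handling. With serine, 13 of the 38 members rose and 2 fell, where 21.7% of all genes were called. Without serine 9 rose and 3 fell, where 28.6% of all genes were called. The members' medians were 0.17 and 0.14, against 0.01 and 0.01 over all genes. Both comparisons use the same 3 arrays before the change, so they are not independent.

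Of the regulators, IRF9, the DNA-binding subunit of the interferon-activated complex, had signals of 8.40, 8.41 and 8.25 before the change, 9.60, 9.53 and 9.43 at 0 h with serine, and 9.74, 9.98 and 9.79 without serine. No array of either later group reached down to the earlier ones. The rise was 1.16 ± 0.09 with serine (2.24-fold, adjusted p = 8.49e-13) and 1.48 ± 0.09 without (2.79-fold, adjusted p = 6.04e-16). IRF1, a transcription factor that interferon gamma induces, went the other way. Its signals were 8.07, 7.88 and 7.94 before, 7.20, 6.99 and 7.03 with serine and 6.85, 7.22 and 7.21 without. It fell by 0.89 and 0.87 on the log2 scale (adjusted p = 5.56e-07 and 4.79e-07). IRF7 did not pass, at 0.31 ± 0.18 and 0.34 ± 0.18.

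Of the antiviral effectors, IFIT2, which binds RNA and inhibits translation, stood at 4.69, 4.88 and 4.86 before, at 5.74, 5.99 and 6.44 with serine, and at 5.54, 5.68 and 6.13 without. It rose by 1.24 ± 0.21 (adjusted p = 1.51e-05) and 0.98 ± 0.21 (adjusted p = 0.000306). IFITM1, a membrane protein that hinders viral entry, rose by 0.77 ± 0.15 and 1.02 ± 0.15. OAS1, which makes the 2′-5′ oligoadenylates that activate an RNA-degrading enzyme, rose by 0.72 ± 0.08 and 0.48 ± 0.08. PARP9 and PARP14, ADP-ribosyltransferase family members, rose in both media, by 0.52 ± 0.12 and 0.62 ± 0.10 with serine. IFIT1 rose by 0.85 ± 0.18 with serine (adjusted p = 0.000374) and stood at 0.17 ± 0.18 without (adjusted p = 0.547). Also called higher with serine but not without were OASL (0.84 ± 0.21), IFIH1, an RNA sensor (0.80 ± 0.25), DDX60 (0.54 ± 0.17) and SAMD9 (0.41 ± 0.14). Among these members the difference between media was itself called for IFIT1 alone, as given below for DMSO at 0 h.

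PSMB9 fell at the change of medium. Its signals of 9.31, 9.41 and 9.33 went to 8.78, 8.79 and 8.82 with serine and to 8.25, 8.59 and 8.46 without. The falls were 0.56 and 0.91 on the log2 scale (adjusted p = 2.06e-05 and 7.15e-10). The paired gene PSMB8, of the same proteasome form, did not go with it: it rose by 0.25 ± 0.07 without serine (adjusted p = 0.00243). OAS3 fell without serine by 0.29 on the log2 scale (adjusted p = 0.00033) and stood at -0.03 ± 0.06 with serine.

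Other genes of the pathway were measured for 29 of 33 listed, and further targets for 46 of 50. At the change of medium without serine, where 28.6% of all genes were called, 7 pathway genes rose and 3 fell, and 15 further targets rose and 3 fell. With serine, where 21.7% were called, the counts were 4 and 3, and 12 and 2. The pathway genes were thus called at a share near that of all genes. IFNE, an epithelial type I interferon, rose by 1.07 ± 0.21 with serine and 0.85 ± 0.21 without. RIGI, a sensor of viral RNA, rose by 0.65 ± 0.18 and 0.66 ± 0.18. SOCS3, a brake on JAK signalling, fell by 0.97 and 1.01 on the log2 scale, and the DNA sensor CGAS by 1.06 and 0.85. The mean signal of CGAS over all arrays was low, at 4.64, under the 40th percentile of 5.16. Antigen presentation genes were among the targets that rose, with HLA-E at 0.41 ± 0.08 and 0.59 ± 0.08 and TAPBP at 0.44 ± 0.06 and 0.33 ± 0.06. The peptide transporter subunit TAP2 fell by 0.35 and 0.70 on the log2 scale.

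Compound 16 was compared with DMSO in cells without serine at each time, to follow how such cells respond. At 0 and 1.5 h limma called 0 of the 38 members, with 2 and 1 at an unadjusted p under 0.05, where 0% and 0.0822% of all genes were called. At 6 h it called 1, ISG20, an exonuclease of RNA, where 2.72% of all genes were called. ISG20 rose by 0.26 ± 0.07 (adjusted p = 0.0356), a call that was lost when any 1 of the 6 arrays was left out. At 24 h 5 members fell and 0 rose, where 7.06% of all genes were called in either direction and 4.08% were called lower. The 5 were OAS1, OAS3, IFITM1, PSMB9 and IFIT1. The median over the members was -0.08, against 0.00 over all genes, and 24 of the 38 differences were negative.

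OAS1 had the largest fall of the list. Its signals were 7.55, 7.37 and 7.38 under the compound and 8.57, 8.51 and 8.54 in DMSO. The arrays of the compound lay about a log2 unit under those of DMSO, with no overlap. The difference was -1.10 ± 0.08, or 2.15-fold lower (adjusted p = 5.93e-13). All 4 OAS1 probe sets were lower, by -1.11 to -0.65.

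OAS3, the largest enzyme of the same family, stood at 9.63, 9.46 and 9.46 under the compound and at 10.09, 10.17 and 10.14 in DMSO. The groups did not overlap, and the fall was 0.62 on the log2 scale, 1.53-fold (adjusted p = 1.84e-09). A second OAS3 probe set of lower signal gave -0.24, and the dimmest, near the low end of the scale, gave 0.12. OAS1, OAS3 and OAS2 lie next to each other on chromosome 12 in RefSeq order. OAS2 was dim, with a mean signal of 4.57, and gave -0.10 ± 0.13. OASL, a relative without the enzyme's activity, gave -0.16 ± 0.21.

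IFITM1 stood at 7.99, 7.89 and 7.88 under the compound and at 8.82, 8.86 and 8.42 in DMSO, again without overlap. It fell by 0.78 on the log2 scale, 1.72-fold (adjusted p = 0.000234), and its other probe set gave -0.79. Its paralogs IFITM2 and IFITM3, with which probes can share sequence, gave -0.23 ± 0.07 and -0.29 ± 0.18 and were not called. PSMB9 stood at 7.40, 7.38 and 7.67 under the compound and at 7.83, 7.92 and 8.14 in DMSO. The highest array of the compound lay under the lowest of DMSO, and the fall was 0.48 on the log2 scale, 1.40-fold (adjusted p = 0.000478). Averaged over its 3 probe sets it was -0.21 (adjusted p = 0.106), so that call rested on the brightest set. PSMB8 gave 0.01 ± 0.07.

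IFIT1 stood at 6.30, 6.31 and 6.02 under the compound and at 6.57, 7.15 and 6.67 in DMSO. The groups did not overlap, but the DMSO arrays were spread widely. The fall was 0.59 on the log2 scale, 1.50-fold (adjusted p = 0.0352). The call was lost without any 1 array of the compound (adjusted p = 0.0574, 0.0521 and 0.166, in that order) and without the DMSO array at 7.15 (adjusted p = 0.253). IFIT5, its neighbour on chromosome 10, gave 0.08 ± 0.16, IFIT2 -0.00 ± 0.21 and IFIT3 0.01 ± 0.21.

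By role, 2 of 4 oligoadenylate synthetases and 1 of 4 IFIT genes fell. None of the 5 members of the ISG15 pathway was called, and ISG15 itself stood at 0.08 ± 0.15. Neither were the MX GTPases, the helicases IFIH1 and DDX60 or the SAMD9 genes. IRF9 gave -0.20 ± 0.09 (adjusted p = 0.202), with its 3 arrays under those of DMSO. In all, 10 members had an unadjusted p under 0.05, the uncalled ones being IRF1, IRF9, DDX60, SAMD9 and IFI44. In 7 members the arrays of the compound lay all below those of DMSO and in 3 all above, where 11.6% and 11.2% of all genes did so. With only the 6 arrays of the comparison fitted, the calls of IFIT1 (adjusted p = 0.148) and PSMB9 (adjusted p = 0.101) were lost.

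**Figure D2:**
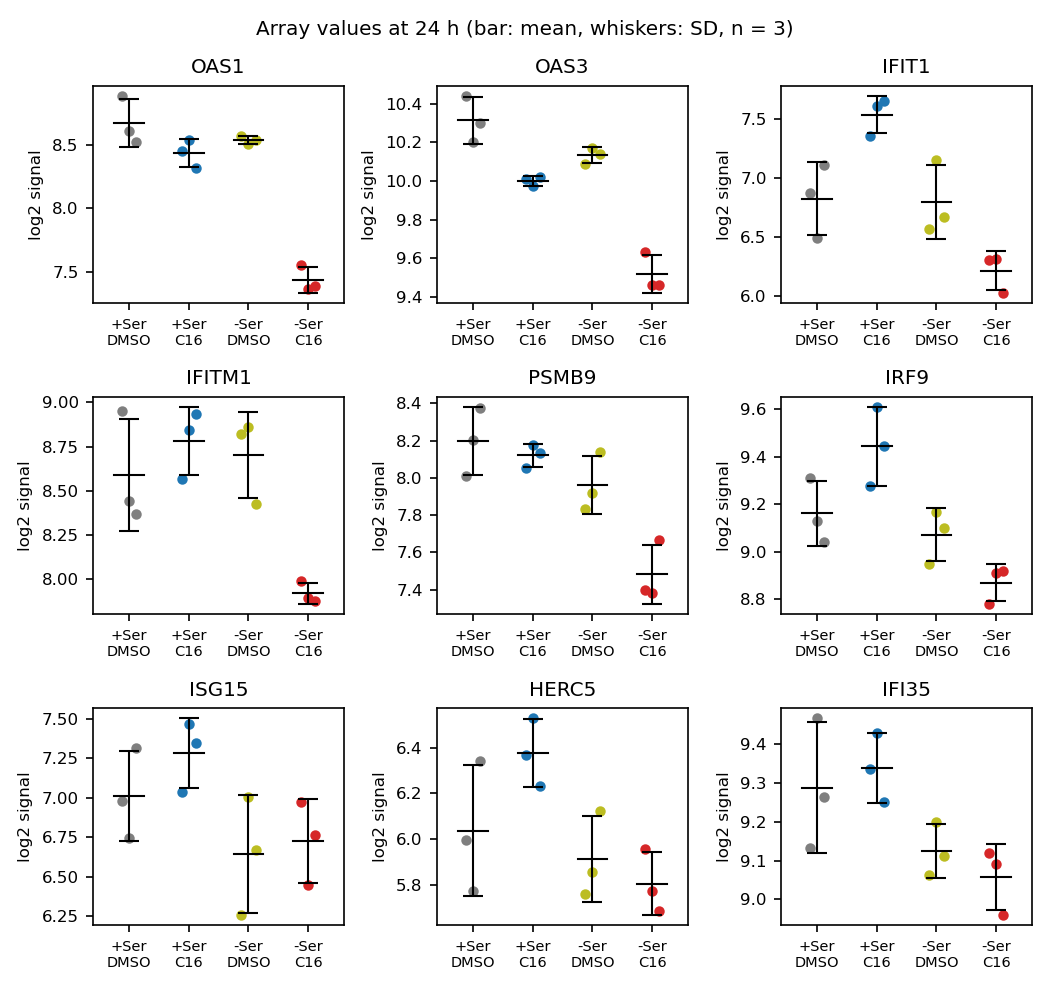
Points are the log2 signals of single arrays at 24 h for the 9 members called in at least 1 comparison at that time, in 4 groups of 3 arrays (+Ser and -Ser, with and without serine; C16, compound 16); bars are means and whiskers SD, and the vertical axes do not start at 0. For OAS1, OAS3, IFIT1, IFITM1, PSMB9 and IRF9 all 3 arrays without serine under the compound lie under the other 9 arrays.

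Of the 17 markers of cell types measured, 4 were called in the same comparison, where 7.06% of all genes were called. KRT7 rose by 0.36 ± 0.05, KRT8 fell by 0.19 on the log2 scale, and of the 4 leukocyte markers CD14 fell by 0.78 and LYZ by 0.75 while PTPRC and CD3E were not called. The group means of CD14 ran from 5.25 to 6.82 and those of LYZ from 4.67 to 7.49 over the 17 groups. Their part in the result was not tested.

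Upstream, none of the 29 pathway genes was called at 24 h without serine in limma (0 of 29, median -0.01). Of all genes 7.06% were called in that comparison. With so low a share, the count of 0 was not read as particular to these genes. Both chains of the type I interferon receptor, IFNAR1 and IFNAR2, gave -0.04 ± 0.12 and 0.12 ± 0.10. IFNLR1, the specific chain for type III interferon, gave -0.31 ± 0.14 (adjusted p = 0.229) and the kinase TYK2 -0.20 ± 0.09. IFNB1 stood near the low end of the scale, at 4.33 under the compound and 4.10 in DMSO. Of the 46 further targets 1 rose, IFI30, a lysosomal reductase of antigen processing, by 0.31 ± 0.08 (adjusted p = 0.0112), and 0 fell. Their median was -0.06.

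With serine in the medium the same comparison gave the compound's effect in supplied cells. At 0, 1.5 and 6 h limma called 0 members, with 3, 0 and 4 at an unadjusted p under 0.05, where 0% of all genes were called at each time. At 24 h 1 member rose and 1 fell, where 1.37% of all genes were called. The median over the members was 0.09, against -0.00 over all genes. Of the 38, 7 had an unadjusted p under 0.05.

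IFIT1 was the member that rose. Its signals were 7.35, 7.61 and 7.65 under the compound and 6.87, 6.49 and 7.11 in DMSO, so every array of the compound lay above every DMSO array. The rise was 0.71 ± 0.18, 1.64-fold (adjusted p = 0.0275). It was no longer called without the arrays at 7.61, 7.65, 6.87 or 6.49, taken singly (adjusted p = 0.0593 to 0.22), and 1 member or none was then called. OAS3 fell, with signals of 10.01, 9.97 and 10.02 against 10.44, 10.20 and 10.30, by 0.31 on the log2 scale, 1.24-fold (adjusted p = 0.0031). That call was lost without the DMSO array at 10.44 (adjusted p = 0.0548), the same array as that at 6.87 for IFIT1, and without it 0 members were called. With only the 6 arrays of the comparison fitted, both calls were lost (adjusted p = 0.309 for IFIT1 and 0.384 for OAS3). OAS1 gave -0.24 ± 0.08 (adjusted p = 0.191), and its groups overlapped. IRF9 gave 0.28 ± 0.09 (adjusted p = 0.132), HERC5, the ligase that attaches ISG15, 0.34 ± 0.13 and IFI27 0.56 ± 0.21, none of them called. None of the 29 pathway genes and 46 further targets was called here, where 1.37% of all genes were called.

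Whether the response depended on serine was tested as the difference of both effects, that without serine less that with serine. At 6 h limma called 0 members, with 5 at an unadjusted p under 0.05, where 0.888% of all genes were called. At 24 h 4 members had a more negative effect without serine and 0 a more positive one, where 1.28% of all genes were called. The median over the members was -0.14, against -0.00 over all genes, and 11 members had an unadjusted p under 0.05.

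IFIT1 differed most, by -1.30 ± 0.25 (adjusted p = 0.00211). It was lower under the compound than in DMSO without serine, and higher with serine. Without serine the IFIT1 mean was 6.25 at 6 h and 6.80 at 24 h in DMSO. Under the compound it was 6.37 and 6.21, so the gap at 24 h went mostly with a higher DMSO mean. A change between 6 and 24 h was not tested. IFITM1 differed by -0.98 ± 0.21 (adjusted p = 0.00637), since with serine it stood at 0.19 ± 0.15, its 3 arrays under the compound (8.57, 8.84 and 8.94) overlapping those in DMSO (8.95, 8.44 and 8.37). OAS1 differed by -0.87 ± 0.12 (adjusted p = 1.76e-05), with its small uncalled difference in the same direction with serine. IRF9 differed by -0.49 ± 0.13 (adjusted p = 0.044), while its effect was called in neither medium. The IRF9 call was lost with 9 of the 12 arrays taken out singly, and under quantile normalization (adjusted p = 0.0673) and median centring (adjusted p = 0.0686). With only the 12 arrays of the comparison fitted, the calls of IFIT1 (adjusted p = 0.0655), IFITM1 (adjusted p = 0.147) and IRF9 (adjusted p = 0.251) were lost and that of OAS1 was kept. For OAS3 and PSMB9 a difference between media was not called, at -0.30 ± 0.09 (adjusted p = 0.0943) and -0.40 ± 0.13 (adjusted p = 0.166).

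**Figure D3:**
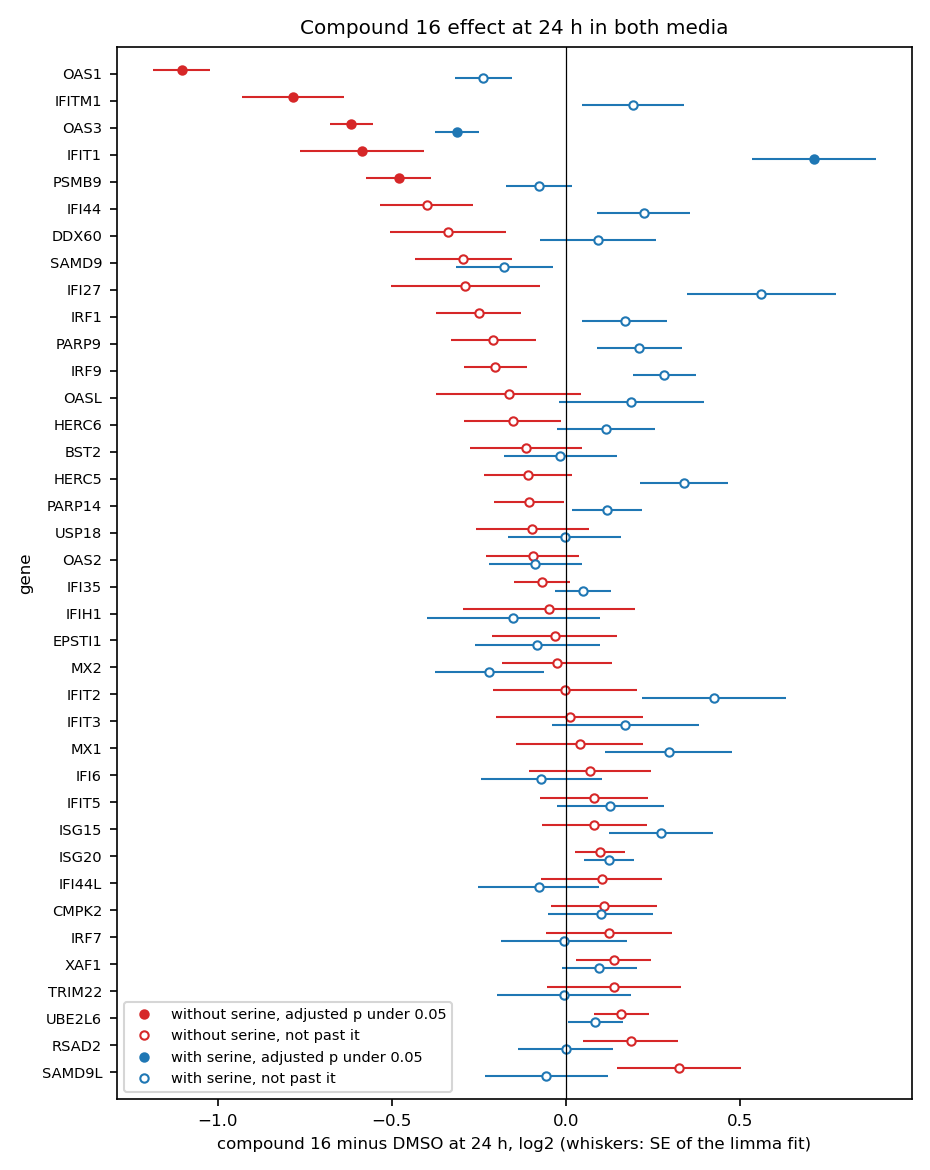
Points give compound 16 minus DMSO at 24 h on the log2 scale for each of the 38 members, without serine in red and with serine in blue, sorted by the value without serine; whiskers are the SE of the limma fit and filled points passed an adjusted p of 0.05. OAS1, IFITM1, OAS3, IFIT1 and PSMB9 are filled without serine, and IFIT1 (higher) and OAS3 (lower) with serine.

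Serine lack by itself was compared in DMSO at each time. At 0 h, after 24 h in the new medium, 1 member was higher and 3 were lower, where 5.9% of all genes were called. IRF9 was higher without serine by 0.32 ± 0.09 (adjusted p = 0.0285). IFIT1 was lower by -0.68 ± 0.18, with 6.40, 6.34 and 6.40 without serine against 7.43, 6.87 and 6.89 with it (adjusted p = 0.0155). PSMB9 was lower by -0.36 ± 0.09 and OAS3 by -0.26 ± 0.06. Without the array at 7.43, 2 of the 4 were called.

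At 1.5 h (n = 3 and 2) OAS1 and PSMB9 were lower, where 1.97% of all genes were called, by -0.55 ± 0.09 and -0.53 ± 0.11, and 1 was called without replicate 49, in DMSO with serine. At 6 h 4 members were lower, where 3.18% were called. OAS1 had signals of 8.19, 8.29 and 8.22 without serine and 8.93, 8.80 and 8.85 with it, a difference of -0.63 ± 0.08 (adjusted p = 3.93e-06). ISG15, the ubiquitin-like protein joined to other proteins, was lower by -0.52 ± 0.15 (adjusted p = 0.0437), PSMB9 by -0.35 ± 0.09 and OAS3 by -0.23 ± 0.06. With any 1 of these 6 arrays left out, 1 or 2 members were called.

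At 24 h limma called 0 members in DMSO, where 0.159% of all genes were called, with 4 at an unadjusted p under 0.05 and the smallest adjusted p at 0.338. OAS1 stood at 8.57, 8.51 and 8.54 without serine and at 8.88, 8.61 and 8.52 with it, a difference of -0.13 ± 0.08 (adjusted p = 0.746). The OAS1 difference seen at 6 h was thus not called at 24 h. Whether the difference itself changed between 6 and 24 h was not tested.

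Under the compound, serine lack was compared at 6 and 24 h. At 6 h 2 members were higher and 3 lower, where 11.8% of all genes were called: ISG20 by 0.33 ± 0.07 and IRF9 by 0.33 ± 0.09 were higher, and OAS1 by -0.58 ± 0.08, OAS3 by -0.39 ± 0.06 and PSMB9 by -0.31 ± 0.09 were lower. Without replicate 59 (with serine) or 63 (without serine) 3 were called. At 24 h 9 members were lower and 0 higher, where 4.39% of all genes were called. The median over the members was -0.21, against 0.00 over all genes, and 29 of 38 differences were negative. In 12 members all 3 arrays without serine lay under those with serine, where 10.2% of all genes did so.

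Of the 9, IFIT1 differed by -1.33 ± 0.18 (2.51-fold, adjusted p = 1.92e-06), OAS1 2-fold (adjusted p = 7.24e-11), IFITM1 by -0.86 ± 0.15 and PSMB9 by -0.64 ± 0.09. IRF9 had signals of 8.78, 8.91 and 8.92 without serine and 9.28, 9.61 and 9.44 with it, and differed by -0.58 ± 0.09 (adjusted p = 3.3e-05). OAS3 differed by -0.48 ± 0.06. HERC5 stood at 5.96, 5.77 and 5.68 against 6.37, 6.53 and 6.23 and differed by -0.57 ± 0.13 (adjusted p = 0.00309). ISG15 stood at 6.97, 6.45 and 6.76 against 7.04, 7.47 and 7.35 and differed by -0.56 ± 0.15 (adjusted p = 0.0201). IFI35, a leucine zipper protein that interferon induces, stood at 9.12, 9.09 and 8.96 against 9.34, 9.43 and 9.25 and differed by -0.28 ± 0.08 (adjusted p = 0.0348). The ISG15 call was lost without the arrays at 7.47, 7.35 or 6.45 (adjusted p = 0.14, 0.0766 and 0.178), and the IFI35 call without those at 9.34, 9.43, 9.09 or 8.96 (adjusted p = 0.0621 to 0.187). With only the 6 arrays fitted, the calls of OAS3, ISG15, HERC5, IRF9, IFI35 and PSMB9 were lost (adjusted p = 0.0511 to 0.216).

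This contrast has no DMSO array in it and shares its arrays with the comparisons of the compound above. Among the other pathway genes IFNGR1, a chain of the interferon gamma receptor, was higher without serine by 0.30 ± 0.06 (adjusted p = 0.00183). Among further targets IFITM3, which blocks fusion of viruses in endosomes, was lower by -0.75 ± 0.18 (adjusted p = 0.0077). Of the 17 markers of cell types measured, none was called in it (limma), where 4.39% of all genes were called. CD14 stood at -0.56 ± 0.21 and LYZ at 0.36 ± 0.23.

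**Figure D4:**
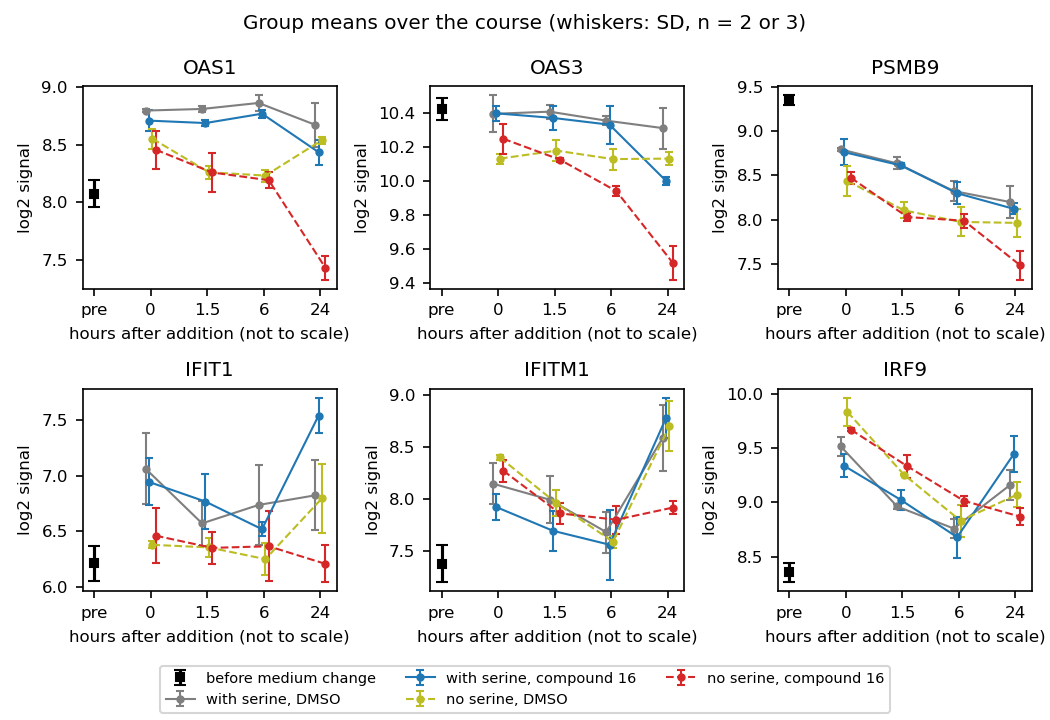
Group means of the log2 signal (whiskers SD, n = 3, or 2 for DMSO with serine at 1.5 h) of 6 members before the change of medium (black square) and at 0, 1.5, 6 and 24 h, spaced evenly and not to scale, by medium and addition. OAS1, OAS3 and PSMB9 lie lower at 24 h than at 6 h without serine under the compound, and IFIT1 and IRF9 are highest at 24 h with serine under the compound among the groups of that time.

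Between 0 and 24 h members were called in every arm, and the groups at 24 h lie 24 h further from the change of medium. In no arm was the share of members called far above that of all genes, so these counts are not particular to the members. In DMSO without serine 6 members fell and 0 rose, where 25.5% of all genes were called, and in DMSO with serine 6 fell and 1 rose, where 20.6% were called. HERC6, IRF9, TRIM22 and PSMB9 fell in both. IRF9 fell by 0.76 on the log2 scale without serine (adjusted p = 8.54e-08) and by 0.36 with serine (adjusted p = 0.00416), after its rise at the change of medium. PSMB9 went on falling, by 0.47 and 0.60.

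Under the compound without serine 10 members fell and 2 rose, where 27.2% of all genes were called. OAS1 fell by 1.02 on the log2 scale (2.03-fold, adjusted p = 6.35e-12), OAS3 by 0.73, PSMB9 by 0.99, PARP9 by 0.64, DDX60 by 0.64 and SAMD9 by 0.46. OAS1 in DMSO over the same time gave -0.01 ± 0.08 and OAS3 0.00 ± 0.06. Between these times OAS1 had lower means in both arms, at 8.26 (1.5 h) and 8.23 (6 h) in DMSO and 8.26 and 8.19 under the compound. At 24 h the mean was 8.54 in DMSO, near its 0 h mean of 8.55, and 7.43 under the compound. Under the compound with serine 5 rose and 3 fell, where 21.4% of all genes were called. IFIT1 rose by 0.59 ± 0.18 (adjusted p = 0.0134), IFITM1 by 0.86 ± 0.15, ISG20 by 0.42 ± 0.07 and ISG15 by 0.41 ± 0.15, and OAS1 fell by 0.27, OAS3 by 0.40 and PSMB9 by 0.64 on the log2 scale.

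In DMSO without serine the IFITM1 mean, like that of OAS1, was lower at 6 h than at 0 and 24 h. Under the compound without serine the OAS1 mean was lower at 24 h than at 6 h, while that of IFITM1 was not. IFITM1 in DMSO without serine stood at 8.38, 8.43 and 8.39 at 0 h, at 7.52, 7.63 and 7.62 at 6 h, and at 8.82, 8.86 and 8.42 at 24 h. Under the compound without serine it stood at 8.20, 8.23 and 8.39 at 0 h, at 7.65, 7.91 and 7.85 at 6 h, and at 7.99, 7.89 and 7.88 at 24 h. The arrays at 24 h without serine under the compound thus lay near those of 6 h, while in the other 3 arms the arrays at 24 h lay above those at 6 h. With serine the 6 h arrays were 7.32, 7.42 and 7.95 under the compound and 7.88, 7.48 and 7.69 in DMSO.

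Outside the lists, the genes whose group means followed the mean of the members most closely over the 17 groups were PRR5L (r = 0.863), PPM1B (0.857), HLA-DMA (0.841), CHD3 (0.831) and TMT1A (0.816), followed by CLN3, ANXA2R, CBR4, DCTN3 and LRP11 (0.811 to 0.802). The members' own mean was set by the groups named above, and these points share arrays, so the values are a description.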

How the data were processed

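The authors deposited log2 signals per probe set for 50 Affymetrix HG-U219 arrays. The submitters' processing notes name RMA (background correction, normalization between arrays and probe summary) and limma, with versions not given here. Such a normalization removes any shift shared by all genes. Of 49386 probe sets, 45253 name 1 gene symbol in the platform annotation, 1327 several, 2713 none, and 93 are controls. Those with several or none were left out, and 11822 of 18239 genes had several probe sets, of which the one with the highest mean over all arrays was used.

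All 17 groups were fitted in limma 3.58.1 (R 4.3.3), with lmFit and eBayes (33 residual and 3.7 prior degrees of freedom), 22 comparisons and Benjamini-Hochberg adjustment within each; the fit was tested on simulated data. Array values are given in full for members called in at least 1 of 5 comparisons at 24 h, and other listed genes are named for their role or call. The members, lists and comparisons were chosen with earlier results of these data known. Array numbers in the titles follow the groups, so an order of processing, if it followed them, cannot be told apart from group. No 2 arrays held identical values. P-values measure the spread between arrays, which may be technical. Alternatives were a filter on dim genes, quantile normalization, median centring, the mean of all probe sets, array weights, the arrays of a comparison alone, and each array left out. Promoter windows of 250 bases came from RefSeq (GRCh38.p14).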

Additional observations from a re-analysis of the deposited data

Results flagged for a closer look

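In 4 members the effect of compound 16 at 24 h differed between the media in the limma fit, by a test of the difference itself (without serine minus with serine, log2). IFIT1 differed by -1.30, IFITM1 by -0.98, OAS1 by -0.87 and IRF9 by -0.49. For IFIT1 the 2 effects had opposite signs and each was called, while for IRF9 neither was. Each IFIT1 effect lost its call in 4 of 6 fits with an array left out. Both also lost it with only the arrays of the comparison fitted (adjusted p = 0.148 without and 0.309 with serine). The IRF9 difference lost its call in 9 of 12 fits with an array left out. It was also lost under quantile normalization (adjusted p = 0.0673) and median centring (adjusted p = 0.0686). No group was large enough, at 3 arrays, to test for an array that stands apart.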

How the results depend on the processing

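Counts of called members stayed within 1.5 times the main count with dim genes left out, with quantile normalization, with median centring and with array weights, in the comparisons with a call. When only the arrays of a comparison were fitted, which leaves few degrees of freedom, the count for the compound went without serine from 1 to 0 at 6 h and from 5 to 3 at 24 h, with serine at 24 h from 2 to 0, and for the difference between media at 24 h from 4 to 1. For serine lack in DMSO it went from 4 to 0 at 0 h, 2 to 0 at 1.5 h and 4 to 1 at 6 h, under the compound from 5 to 2 at 6 h and 9 to 3 at 24 h, and for 24 h against 0 h with serine from 7 to 3 in DMSO and 8 to 5 under the compound. With the mean of all probe sets, the compound without serine at 6 h called 2, and serine lack in DMSO called 2 at 0 h and 2 at 6 h. With each array left out in turn, the compound without serine called 0 at 6 h and 4 to 6 at 24 h, with serine at 24 h 0 to 2, and the difference between media 3 to 5. Serine lack in DMSO called 2 to 4 at 0 h, 1 to 2 at 1.5 h and 1 to 2 at 6 h, and under the compound 3 to 5 at 6 h and 7 to 9 at 24 h. The change of medium called 11 to 12 without and 13 to 17 with serine.

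The 9 members called at 24 h were followed in 45 comparisons, of which 20 were called. Under the other settings 101 values kept their call and 19 lost it with the direction kept, and with an array left out 119 kept it and 25 lost it. Of the differences not called, 2 values under other settings and 2 with an array left out passed the test. OAS1 kept its calls throughout in the comparisons at 24 h. OAS3 with the mean of its probe sets lost its call for serine lack under the compound (adjusted p = 0.0792). The sign turned only in differences that were not called. With an array left out, the compound gave -0.11 to 0.26 for ISG15 without serine and, with serine, -0.027 to 0.14 for IFI35 and -0.17 to 0.014 for PSMB9. Serine lack in DMSO gave -0.20 to 0.12 for IFIT1 and -0.26 to 0.029 for HERC5. The OAS3 difference between media was 0.017 with the mean of its probe sets. Centring the arrays moved the median of all genes at 24 h without serine by 0.02. No paired analysis was possible because array numbers in the titles do not repeat between groups. Signals have no stated background, which limits the 13 dim members.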
